A study of Mus musculus with 6 samples.

Results

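Genes known as targets of 1,25-dihydroxyvitamin D3 (1,25D), the hormonally active form of vitamin D, in bone, gut and kidney were followed in brain cultures exposed to the hormone. The 39 listed genes are known mostly from bone, gut, kidney and immune cells, with the monoamine enzymes Th and Tph2 among them, and 33 had a row of the array table with exactly 1 gene symbol, out of 19938 genes with such a row. Spp1, Bglap, Enpp1, Runx2, Pthlh and Cyp19a1 had none and are not analysed here. The cultures were primary neural cells from the brain of OF1 mouse embryos at embryonic day 17, differentiated in fetal calf serum into a mixture of neurons and glia and then kept in serum-free medium lacking growth factors. The 3 control arrays came from cultures given vehicle (0 nM) and the 3 treated arrays from cultures given 1,25D at 10 nM. Both groups share strain, age and culture, and no genetic change is named. The labels call the arrays of a group biological replicates but do not say whether they came from separate litters or culture days, so every p-value reflects the spread among these 6 arrays, which may be technical. The labels used here do not say how long the hormone was present.

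1,25D acts by binding the vitamin D receptor, which pairs with a retinoid X receptor on DNA and switches genes on or off. In the gut the hormone raises calcium and phosphate uptake, in the kidney it adjusts their recovery, and in bone it acts on osteoblasts and osteocytes, which in turn set the number of osteoclasts. Outside mineral balance, receptor targets include antimicrobial peptides of human macrophages, detoxifying enzymes of gut and liver, and enzymes that make monoamine transmitters.

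None of the 33 target genes changed past the threshold in the treated cultures. Levels are given as log2 of the intensity deposited by the authors, and a difference is the treated minus the control mean on that scale, so 1 stands for a doubling. By limma with Benjamini-Hochberg adjustment over all 19938 genes, 0 members rose and 0 fell at an adjusted p under 0.05, where 0.0251% of all genes were called. All 33 had an adjusted p of 1.00. At an unadjusted p under 0.05 there were 0 members, against 1.48% of all genes (0.953% higher and 0.527% lower). With equal replicate numbers treated as pairs (a block on the replicate number), again 0 were called, against 0.0903% of all genes, and the lowest adjusted p of a member was 0.78. In that paired fit 3 members (9.09%) had an unadjusted p under 0.05, Tnfsf11 and Mgp as higher and Serpinb1a as lower, against 5.78% of all genes (3.16% higher and 2.61% lower). A count of 3 is close to that background.

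The members as a list lay where all genes lay. Their median difference was 0.0031 against 0.0074 for all genes, 18 members were above 0 and 15 below, and 22 of 33 (66.7%) differed by less than 0.1 in size against 66.0% of all genes. The median size of the difference was 0.054 in the members and 0.070 in all genes. For 31 of the 33, the 95% interval of the difference lay within a 1.5-fold change in either direction, in the fit without pairs and in the paired fit alike, and the 2 whose interval reached further were Mgp and Serpinb1a. Those 2 were also the members with the largest differences, at 0.55 and -0.32. Several of the 31 were dim genes, named below, where a narrow interval says little because differences of dim genes are compressed. In the same cultures S100g, which encodes the calcium-binding protein calbindin-D9k and is a receptor target of gut and kidney outside this list, rose from 7.48, 7.10 and 7.18 in control replicates 1, 2 and 3 to 8.68, 8.97 and 8.81 in the treated ones (adjusted p = 0.022, limma). Of the receptor and calcium list that holds it, 0 genes were called when any 1 array other than control replicate 1 was left out. The distribution of differences shows both sets.

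**Figure D1:**
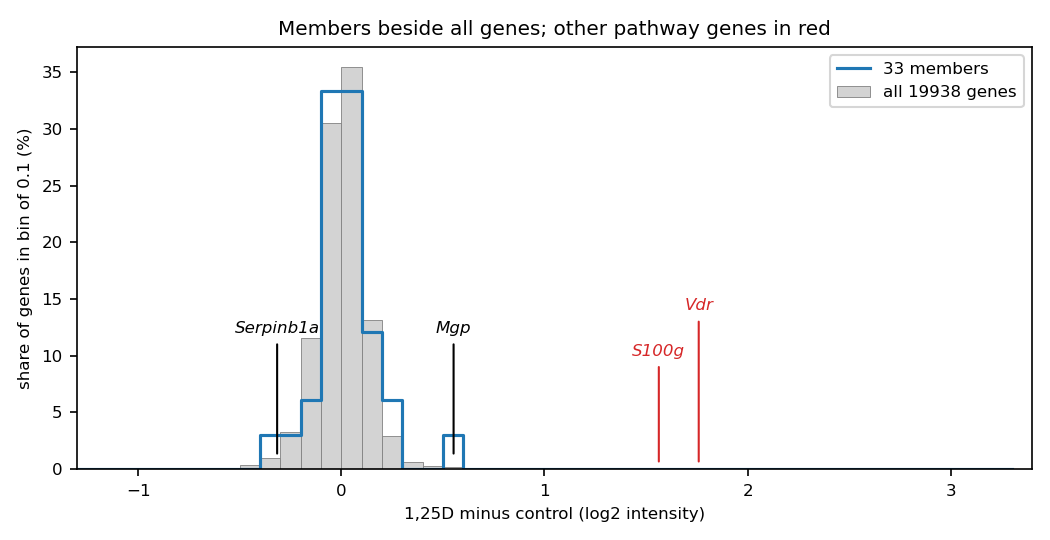
Share of genes (%) per bin of 0.1 in the difference 1,25D minus control (log2 intensity), for all 19938 genes (grey bars) and the 33 members (blue line). Mgp at 0.55 and Serpinb1a at -0.32 are the outermost members, and S100g at 1.56 and Vdr at 1.76, which are not members, are marked in red.

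The arrays themselves were alike in overall level, with medians over all genes between 7.91 and 7.98 and medians over the members between 7.61 and 7.87. The labelled mixture was checked against its markers. All 5 astrocyte markers were measured and 4 of them lay in the brightest 25% of genes, as Aqp4 at a control mean of 12.72 and Gfap at 11.61. The 5 neuron markers lay above the dimmest 25%, with control means from 7.41 for Tubb3 to 10.94 for Map2 and Rbfox3 at 7.76. Only Map2 of them lay in the brightest 25%. The 4 measured markers of the oligodendrocyte lineage had control means from 7.28 for Mbp to 8.76 for Olig2. Their differences ran from -0.14 to 0.09, with 0 called. None of the 10 astrocyte and neuron markers passed over all genes, and all 10 had a mean difference below 0. These ran from -0.34 to -0.03 for neuron markers and from -0.27 to -0.01 for astrocyte markers. Rbfox3, a neuronal splicing factor, had -0.32, -0.25 and -0.46 in the pairs with no overlap of the groups (unadjusted p = 0.036 and adjusted p = 1.00 in limma, 0.0044 and 0.51 with pairs), and Map2, Aldh1l1 and Aqp4 were also lower in every pair. Tubb3, Snap25, Syt1, Gfap, Slc1a3 and S100b changed sign between pairs. Of all genes, 47.0% had a mean difference below 0 and 11.0% were lower in every pair. The summed intensity of the neuron list ran from 2325 to 3478 in controls and from 1733 to 3060 in treated cultures, and that of the astrocyte list from 13353 to 21744 and from 13821 to 21575. Such sums of linear intensity weigh bright genes most, and Map2 and Aqp4 were the brightest of these lists. The part of neurons and astrocytes in the members' values was not tested. Of 9 members (27.3%) the mean level lay in the dimmest 25% of genes, below 6.79. These were Phex, Slc34a2, Cyp3a11, Trem1, Serpinb1a, Thbd, Cst6, Fbp1 and Tph2. The array values carry no detection call, and differences of dim genes are compressed, so a small difference of these 9 says little. A level in whole cultures also cannot tell fewer cells of a type apart from less RNA per cell.

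Directions were also counted within pairs, as a description without a test. The difference had the same sign in each of the 3 pairs for 11 members (33.3%, against 25.8% of all genes), 8 of them higher (24.2% against 14.8%) and 3 lower (9.09% against 11.0%). The 8 were Tnfsf11, Lrp5, Slc34a2, Fgf23, Slc30a10, Trem1, Cst6 and Nrip1, and the 3 were Cldn2, Serpinb1a and Ccnc. No member was at least 1.2-fold higher in every pair or at least 1.2-fold lower in every pair, against 0.667% and 0.201% of all genes. The groups did not overlap for 2 members, Slc34a2 and Nrip1, both higher. That is 6.06% of the members, against 4.15% of all genes, of which 2.63% higher and 1.52% lower. The plot of differences gives every member by pair.

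**Figure D2:**
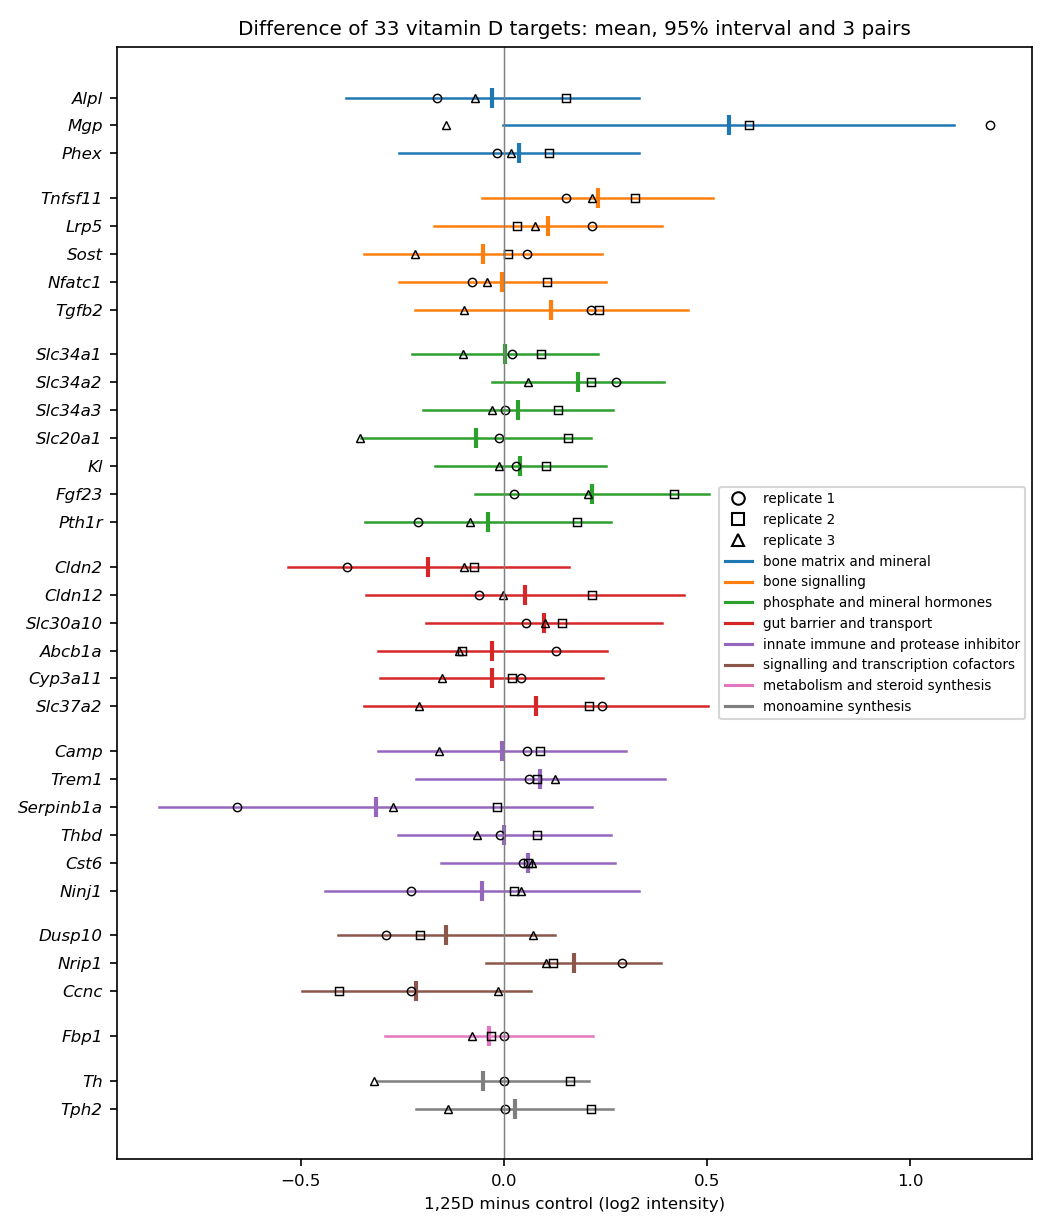
Difference 1,25D minus control (log2 intensity) of the 33 measured members, ordered by role. Vertical ticks are means, coloured lines their 95% intervals from limma without pairs, and open symbols the differences within replicate numbers 1 to 3; the interval of every member includes 0, and Mgp has the widest spread between pairs, from -0.14 to 1.197.

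Among genes of bone matrix and mineral, Mgp had the largest difference of any member. Mgp encodes matrix Gla protein, a secreted inhibitor of calcification. Its level was 7.13, 7.28 and 7.45 in control replicates 1, 2 and 3 and 8.33, 7.88 and 7.30 in the treated replicates. Treated replicates 1 and 2 stood above all controls, while treated replicate 3 lay inside the control range. The means were 7.29 ± 0.16 and 7.84 ± 0.51 (SD, n = 3 each), a difference of 0.55 ± 0.24 (SE) or 1.47-fold, with an unadjusted p of 0.051 and an adjusted p of 1.00 in limma, and 0.048 and 0.86 with pairs. Without replicate 3 the paired difference was 0.90 (adjusted p = 0.096, limma), and without replicate 1 it was 0.23 (adjusted p = 1.00), so the size of the difference rested on which cultures were counted.

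Markers of cells in the vessel wall and meninges were set beside Mgp, since such cells are known to make it. These lists were set beside Mgp after their values were seen. None of the 5 pericyte or 5 meningeal fibroblast markers passed over all genes. Pdgfrb, a growth factor receptor of pericytes, had differences of 0.47, 0.39 and 0.60 in pairs 1, 2 and 3. Col1a1, a collagen chain, had 0.51, 0.64 and 0.10, against 1.197, 0.60 and -0.14 for Mgp. Pdgfrb was at least 1.2-fold higher in every pair, with an unadjusted p of 0.047 in limma. With pairs it had 0.00074, and an adjusted p of 0.23. Col1a1, whose groups did not overlap, had an unadjusted p of 0.053 in limma. With pairs it had 0.0105, and an adjusted p of 0.67. The other pericyte markers, Rgs5, Kcnj8, Abcc9 and Cspg4, had mean differences between -0.12 and 0.15, and the fibroblast markers Col1a2, Dcn, Lum and Slc6a13 between -0.04 and 0.06. The summed intensity of the pericyte list ran from 1008 to 1224 in controls and from 1151 to 1436 in treated cultures, and that of the fibroblast list from 1132 to 1376 and from 1324 to 1700. Such sums of linear intensity weigh bright genes most. Pdgfrb and Col1a1 were the brightest of their lists, at control means of 8.81 and 9.33, so the sums do not stand for the other markers. Lum, the fibroblast marker with the lowest intensity, was at a control mean of 4.68. Their part in the Mgp difference was not tested.

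The other members of the mineral group barely differed. Phex, a membrane endopeptidase that controls phosphate wasting, was at 6.29, 6.03 and 6.38 in the controls and 6.28, 6.14 and 6.40 in the treated cultures, 1 pair lower and 2 higher. Its groups overlapped almost fully. Alpl, the tissue-nonspecific alkaline phosphatase that frees phosphate for mineral, had a control mean of 8.06 ± 0.28 and a difference of -0.03 ± 0.16 (SE).

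Of the genes that signal between bone cells, Tnfsf11 had the smallest paired p. Tnfsf11 encodes RANKL, the ligand by which osteoblast-lineage cells drive osteoclast formation, and is a textbook receptor target in bone. It was at 8.82, 8.64 and 8.51 in the controls and 8.98, 8.96 and 8.72 in the treated cultures. Each treated culture was above the control of its own number, by 0.15, 0.32 and 0.22, while the groups overlapped because level and replicate number went together. The difference was 0.23 ± 0.12 (SE, 1.17-fold), with an unadjusted p of 0.098 and an adjusted p of 1.00 in limma. With pairs these were 0.024 and 0.78, and the 95% interval ran from 0.04 to 0.42, below a 1.5-fold rise.

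The promoter of Tnfsf11 is printed because this gene had the smallest paired p of the members. The sequence covers the 250 bases before the start site in RefSeq, on the minus strand of GRCm38.p6 at chr14:78308044-78308293. Capitals, here and in the other promoters, mark hexamers of the receptor half-site family on either strand. The search took AGGTCA, which is the common half-site of nuclear receptors, and GGTTCA, which is known from the vitamin D element of the mouse osteopontin gene. Their close relatives GGGTCA and, with the same ending, AGTTCA were taken as well. Tnfsf11 held none of them in this window.
Tnfsf11: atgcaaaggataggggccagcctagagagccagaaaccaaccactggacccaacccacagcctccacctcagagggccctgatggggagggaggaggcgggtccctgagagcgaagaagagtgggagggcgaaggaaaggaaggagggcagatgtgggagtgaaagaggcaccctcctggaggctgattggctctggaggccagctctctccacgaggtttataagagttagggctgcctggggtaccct

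Over the promoter table, 33 of the 39 listed genes had at least 1 window, 43 windows in all. These are not the same 33 genes as those measured, since Mgp, Serpinb1a, Lrp5, Thbd, Cst6 and Nfatc1 had no window. At least 1 of the 4 hexamers, overlapping matches counted, stood in 23 of these 43 windows (53.5%) and in 38.6% of all 32851 windows of that length. The DR3 element, in which any 2 of the hexamers follow each other on the same strand with 3 bases between, stood in 0 of the 43 and in 0.0396% of all windows. Windows of 1 gene can share sequence, and the vitamin D elements of many targets are known to lie far from the start site, so these counts describe the letters of this window alone.

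The decoy receptor of RANKL, Tnfrsf11b or osteoprotegerin, belongs to the further bone list and was picked out after its values were seen. It was at 8.87, 8.47 and 8.34 in the controls and 8.38, 8.29 and 8.09 in the treated cultures. Its differences were -0.49, -0.18 and -0.24 in pairs 1, 2 and 3, each of the opposite sign to those of Tnfsf11. The mean difference of -0.30 ± 0.16 (SE) had an unadjusted p of 0.087 and an adjusted p of 1.00 in limma, and 0.013 and 0.68 with pairs.

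Lrp5, a co-receptor for Wnt ligands in osteoblasts, was at 9.39, 9.48 and 9.22 in the controls and 9.61, 9.51 and 9.30 in the treated cultures. All 3 pairs were higher but the groups overlapped, with a difference of 0.11 ± 0.12 (SE). Tgfb2, a growth factor stored in bone matrix, had a difference of 0.12 ± 0.14 (SE) from a control mean of 10.43 ± 0.27 (SD, n = 3). Sost, the Wnt inhibitor sclerostin of osteocytes, had -0.05 ± 0.13, and Nfatc1, a transcription factor that drives osteoclast formation, had -0.00 ± 0.11 (SE). In these 4 genes the spread between cultures was as large as the difference.

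Among phosphate carriers and mineral hormones, Slc34a2 and Fgf23 were higher in every pair, and no gene passed. Slc34a2, the sodium-phosphate cotransporter of the small intestine, was at 6.47, 6.47 and 6.55 in the controls and 6.74, 6.68 and 6.61 in the treated cultures. Every treated value was above every control value, by a narrow margin between control replicate 3 and treated replicate 3. The difference was 0.18 ± 0.09 (SE, 1.13-fold), with an unadjusted p of 0.082 and an adjusted p of 1.00 in limma (0.063 and 0.87 with pairs). The gene was dim, in the lowest 25% of genes.

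Fgf23 encodes the bone hormone that lowers blood phosphate and is raised by 1,25D in osteocytes. It was at 7.82, 7.45 and 7.51 in the controls and 7.85, 7.87 and 7.71 in the treated cultures. Control replicate 1 was as high as the treated cultures, so the pair differences were 0.02, 0.42 and 0.21. The mean difference was 0.22 ± 0.12 (SE, 1.16-fold), with an unadjusted p of 0.12 and an adjusted p of 1.00 in limma (0.064 and 0.87 with pairs).

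The promoters of both genes are given as the members of this group that were higher in every pair. They cover the 250 bases before the start site on the plus strand of GRCm38.p6, from RefSeq, at chr5:53049103-53049352 for Slc34a2 and chr6:127072652-127072901 for Fgf23. Slc34a2 had no hexamer. Fgf23 had 2 copies of GGGTCA in opposite orientation, the one nearer the start in the direction of the gene, from 242 to 237 and from 235 to 230 bases before the start.
Slc34a2: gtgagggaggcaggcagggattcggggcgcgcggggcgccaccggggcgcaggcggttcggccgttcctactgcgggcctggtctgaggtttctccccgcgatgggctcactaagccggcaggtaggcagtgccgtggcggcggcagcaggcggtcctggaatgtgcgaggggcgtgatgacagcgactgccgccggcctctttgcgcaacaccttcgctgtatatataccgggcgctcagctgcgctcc
Fgf23: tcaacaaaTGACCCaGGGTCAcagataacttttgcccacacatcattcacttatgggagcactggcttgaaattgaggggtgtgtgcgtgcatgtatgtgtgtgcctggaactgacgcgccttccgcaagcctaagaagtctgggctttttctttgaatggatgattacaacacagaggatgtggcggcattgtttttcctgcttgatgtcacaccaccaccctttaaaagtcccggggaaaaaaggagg

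The remaining 5 genes of mineral balance lay close to 0. Slc34a1 and Slc34a3, the sodium-phosphate cotransporters of the kidney, had control means of 7.89 and 7.78 and differences of 0.00 ± 0.10 and 0.03 ± 0.10 (SE). Slc20a1, a phosphate carrier of most cells, was the brightest of the group at 10.79 ± 0.16 (SD, n = 3) and had -0.07 ± 0.12 (SE), with -0.01, 0.16 and -0.35 in the pairs. Kl, the co-receptor klotho through which FGF23 acts and a gene of choroid plexus and kidney, had 0.04 ± 0.09, and Pth1r, the receptor of parathyroid hormone, had -0.04 ± 0.13 (SE). The pairs disagreed in sign for each of these 5 genes. Of the 5 choroid plexus markers none passed. Folr1, Kcnj13, Ttr and Clic6 were lower in pairs 1 and 2 and higher in pair 3. Folr1 had -0.60, -0.07 and 0.65, and Clic6 had -0.13, -0.02 and 0.21. Otx2 was lower in every pair, at -0.02, -0.18 and -0.06. Kl itself had 0.03, 0.10 and -0.01.

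Genes of gut barrier, transport and detoxification gave no call in either direction. Cldn2, a tight junction protein that lets cations pass between cells and is raised by the hormone in gut, had the largest difference of the 6, towards lower. It was at 7.88, 7.66 and 8.03 in the controls and 7.49, 7.59 and 7.93 in the treated cultures, lower in all 3 pairs with overlapping groups. The difference was -0.19 ± 0.15 (SE), with an unadjusted p of 0.25 in limma and 0.086 with pairs. Slc30a10, an exporter of manganese, was at 7.83, 8.02 and 7.75 in the controls and 7.88, 8.16 and 7.85 in the treated cultures. Each pair was higher, by 0.05, 0.14 and 0.10, a difference of 0.10 ± 0.12 (SE) inside the spread between cultures.

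Cldn12, a second calcium-permeable claudin, had a difference of 0.05 ± 0.17 (SE), and Slc37a2, a sugar phosphate exchanger, had 0.08 ± 0.18 (SE). Abcb1a, the drug efflux pump P-glycoprotein of gut and brain vessels, had -0.03 ± 0.12 (SE). None of the 5 endothelial markers passed, with mean differences of 0.17 for Cdh5, 0.09 for Cldn5, 0.02 for Tek, -0.04 for Pecam1 and -0.16 for Kdr, the last with -0.97, -0.01 and 0.49 in the pairs. Cyp3a11, a drug-oxidising enzyme induced by the hormone in gut and liver, was the dimmest member, with a control mean of 4.67 ± 0.16 (SD, n = 3) and a difference of -0.03 ± 0.12 (SE). All 4 members changed sign between pairs.

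In the group of innate immune genes and protease inhibitors, Serpinb1a had the lowest difference of any member. Serpinb1a encodes an inhibitor of neutrophil serine proteases. It was at 7.41, 6.45 and 6.79 in the controls and 6.75, 6.43 and 6.51 in the treated cultures. Control replicate 1 stood well above the other 5 arrays, and the pair differences were -0.66, -0.02 and -0.27. The mean difference was -0.32 ± 0.23 (SE, 1.25-fold lower), with an unadjusted p of 0.21 and an adjusted p of 1.00 in limma (0.044 and 0.86 with pairs). Without control replicate 1 the difference was -0.05, and without replicate 1 in the paired fit -0.15, so most of it came from that culture.

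Trem1, an activating receptor of neutrophils and monocytes, was at 5.78, 5.73 and 6.02 in the controls and 5.84, 5.81 and 6.14 in the treated cultures. The pairs were higher by 0.06, 0.08 and 0.13, a difference of 0.09 ± 0.13 (SE) in a dim gene. Cst6, a secreted inhibitor of cysteine proteases, had nearly equal pair differences of 0.05, 0.06 and 0.07. Its mean difference was 0.06 ± 0.09 (SE). Camp, the antimicrobial peptide cathelicidin, had -0.01 ± 0.13, and Thbd, the anticoagulant receptor thrombomodulin, had 0.00 ± 0.11 (SE). Both are strong receptor targets in human myeloid cells. Ninj1, an adhesion protein that helps to rupture the membrane of dying cells, was bright at 10.47 ± 0.20 (SD, n = 3) and had -0.05 ± 0.17 (SE). Microglia markers, the myeloid genes of such cultures, had differences between 0.02 and 0.19 over 6 genes, all above 0 and none called. Their control means ran from 6.03 for Aif1, the dimmest, to 8.03 for Cx3cr1. Cx3cr1 also had the largest difference, and its treated values all lay above its controls.

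Of the 3 signalling and transcription cofactors, Nrip1 was higher and Ccnc lower in every pair. Nrip1 encodes RIP140, a co-repressor that binds nuclear receptors. It was at 8.73, 8.80 and 8.75 in the controls and 9.02, 8.92 and 8.86 in the treated cultures, so every treated value was above every control. The difference was 0.17 ± 0.09 (SE, 1.13-fold), with an unadjusted p of 0.10 and an adjusted p of 1.00 in limma (0.074 and 0.88 with pairs). The control arrays were close together, with an SD of 0.03. Of the 2 promoter windows of Nrip1 the one with more hexamers is given, on the minus strand of GRCm38.p6 at chr16:76373828-76374077, from RefSeq. It is shown because Nrip1 was the brighter of the 2 members whose groups did not overlap. It held 3 hexamers, GGTTCA from 219 to 214, GGTTCA on the opposite strand from 132 to 127, and GGGTCA from 78 to 73 bases before the start.
Nrip1: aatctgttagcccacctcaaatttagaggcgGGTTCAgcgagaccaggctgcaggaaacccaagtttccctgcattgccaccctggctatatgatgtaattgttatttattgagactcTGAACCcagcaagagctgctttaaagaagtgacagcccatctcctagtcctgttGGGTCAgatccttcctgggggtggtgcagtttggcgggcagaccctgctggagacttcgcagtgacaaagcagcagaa

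Ccnc encodes cyclin C, a subunit of the Mediator kinase module, and has been described as a direct receptor target. It was at 10.15, 10.40 and 10.25 in the controls and 9.92, 10.00 and 10.23 in the treated cultures. The pairs were lower by differences of -0.23, -0.41 and -0.02, and the groups overlapped only through treated replicate 3. The mean difference was -0.22 ± 0.12 (SE, 1.16-fold lower), with an unadjusted p of 0.11 in limma and 0.063 with pairs. Dusp10, a phosphatase that switches off p38 and JNK kinases, had controls within an SD of 0.01 and a difference of -0.14 ± 0.12 (SE), with -0.29, -0.21 and 0.07 in the pairs.

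The genes of metabolism and monoamine synthesis differed little. Fbp1, an enzyme of gluconeogenesis, was at 6.31, 6.21 and 6.47 in the controls and 6.31, 6.18 and 6.39 in the treated cultures. Th, tyrosine hydroxylase, the first enzyme of dopamine synthesis, was at 7.42, 7.30 and 7.58 in the controls and 7.42, 7.47 and 7.26 in the treated cultures. Tph2, the enzyme that starts serotonin synthesis in neurons, was at 5.86, 5.77 and 6.03 in the controls and 5.87, 5.98 and 5.89 in the treated cultures. The groups of all 3 overlapped, with differences of -0.04 ± 0.11, -0.05 ± 0.11 and 0.03 ± 0.10 (SE). Fbp1 and Th had the very same deposited value in both arrays numbered 1, as had 1094 of all genes (5.49%), which sets their pair 1 difference to 0. Over all rows of the table, 1514 were identical in these 2 arrays, against at most 26 rows in any other 2 arrays. The reason is not known, and whether it bears on the other pair 1 differences was not tested. The other markers of monoamine neurons did not pass either. For dopamine neurons the differences were -0.02 ± 0.09 for the transporter Slc6a3, 0.10 ± 0.09 for Ddc, 0.15 ± 0.12 for Slc18a2 and -0.14 ± 0.13 (SE) for Nr4a2, with Ddc and Slc18a2 above 0 in all 3 pairs. Slc6a4, the serotonin transporter, had 0.09 ± 0.10 (SE).

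**Figure D3:**
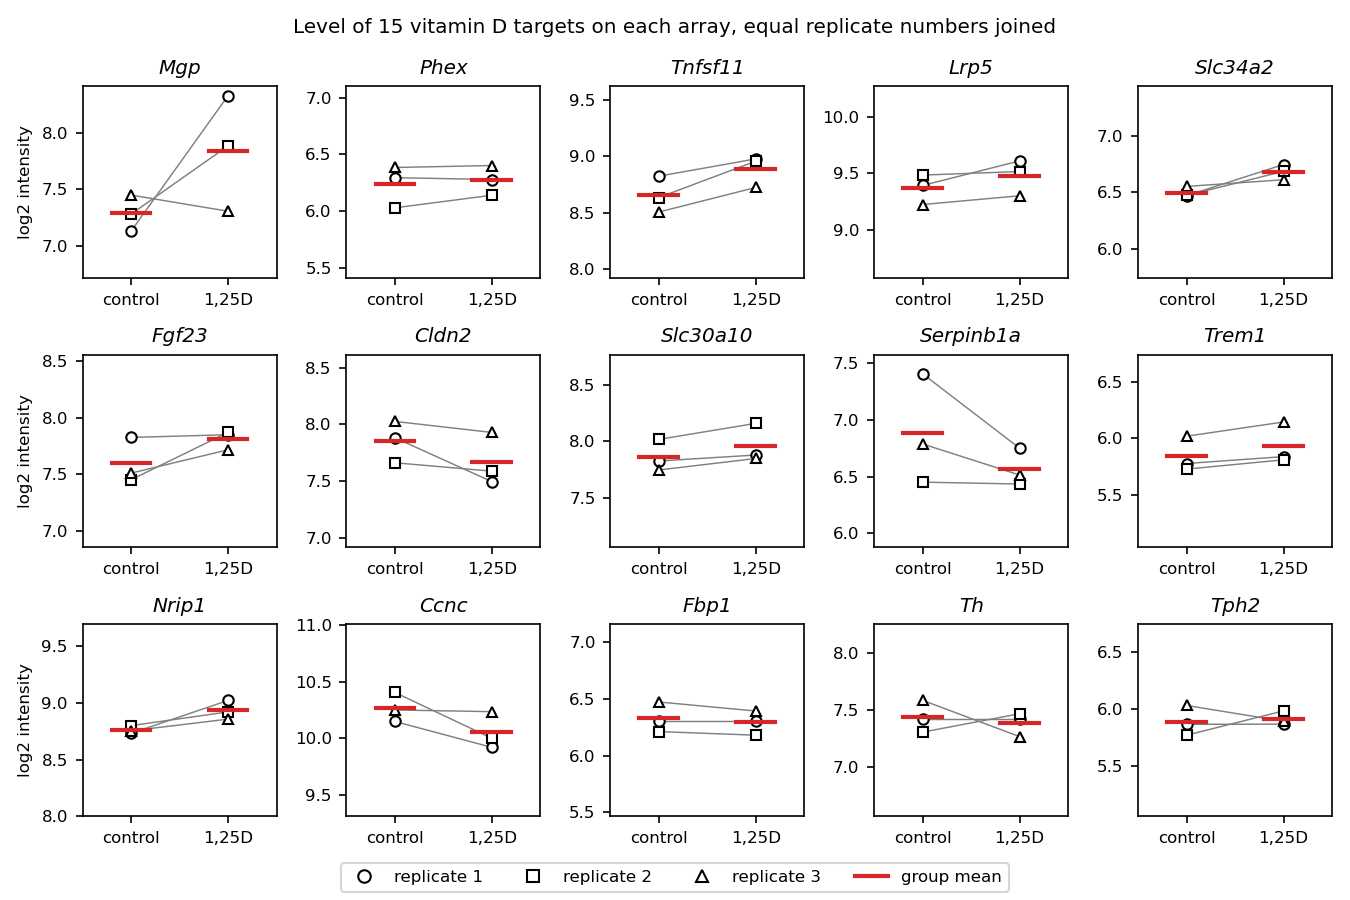
Level (log2 intensity) of 15 members on each array, with control and 1,25D arrays of equal replicate number joined by a line and group means as red bars; every panel spans 1.7 log2 units. Treated values of Slc34a2 and Nrip1 all lie above the controls, Mgp is higher in replicates 1 and 2 but not in 3, and Serpinb1a is high in control replicate 1 alone.

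Further genes of the same pathways were counted over 2 whole lists. Of 16 measured genes of vitamin D reception and calcium transport, 1 rose (S100g) and 0 fell in both fits. Of all genes, 0.0251% were called without pairs and 0.0903% with pairs. At least 1.2-fold higher in every pair were 4 of the 16, Vdr, Rxrg, S100g and Atp2b1, against 0.667% of all genes. At least 1.2-fold lower in every pair were 0, against 0.201%. The list was chosen with earlier results of these data known, so its shares beside those of all genes are a description only. Atp2b1, a calcium pump, had 0.76 ± 0.16 (SE), with an adjusted p of 0.90 in limma and 0.25 with pairs. Rxrg, a retinoid X receptor, had 0.41 ± 0.26 (SE), with an unadjusted p of 0.16 in limma without pairs. Its adjusted p was 0.36 in limma with pairs. Vdr, the receptor itself, had a 3.39-fold higher mean, at 7.25, 6.93 and 7.11 in the controls and 9.63, 8.51 and 8.43 in the treated cultures, with an adjusted p of 0.38 in limma and 0.052 with pairs. Its lowest treated value stood above its highest control value. Of 19 measured genes of osteoblasts, osteocytes and osteoclasts, 0 rose and 0 fell in either fit, with a median difference of 0.0010. The smallest unadjusted p-values of that list were those of Col1a1 at 0.42 ± 0.18 and Bmp2, a bone morphogenetic protein, at -0.26 ± 0.12 (SE), both with an adjusted p of 1.00 in limma.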

How the data were processed

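The series measured 6 arrays, 3 control and 3 treated. For each transcript cluster the authors deposited an intensity. The submitters' processing notes name RMA and Affymetrix Expression Console; the sources used here give no version, filter or genome build. The intensities are linear, from 8.05 to 22019, so log2 was taken. Of 35556 rows, GEO's platform annotation gave 21789 exactly 1 symbol, standing for 19938 genes; where a gene had several rows (999 genes) the brightest on average was taken. Symbols are those of that annotation. No other sample's column was present.

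1,25D minus control was fitted over all 19938 genes with limma 3.58.1 in R 4.3.3 (lmFit, eBayes without trend, two-sided, Benjamini-Hochberg over all genes, threshold 0.05), without and with the replicate number as a block. The fit was run on simulated data only to check that it returned the mean size of added changes. How often small changes would be called is not given here. Deviations from the group means correlated at 0.51, 0.65 and 0.46 over all genes for equal numbers 1, 2 and 3, a hint from the data that the numbers pair the arrays; the labels do not say so. An exact permutation test of 1 gene could not go below 0.1 here. The number of arrays limits the precision. The members and lists were chosen with earlier results of these data known. Every measured member is named; values per array are given for the 2 members of each role with the smallest unadjusted p, for those at an unadjusted p under 0.05 in either fit, and for those whose groups do not overlap. Of the further lists, called genes or otherwise the 2 with the smallest p are named, with Vdr and S100g always; Cyp24a1, also in that rule, had no such row. Tnfrsf11b, Atp2b1 and Rxrg, and which marker lists stand beside which members, were chosen after their values were seen. Promoters are RefSeq's, from the 250 bases before the start site. Alternatives were quantile normalisation, median centring, a filter on the dimmest 25% of genes, a trend in eBayes, the mean of a gene's rows, and the omission of arrays.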

Additional observations from a re-analysis of the deposited data

How the results depend on the processing

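No member passed in any setting, and the lowest adjusted p was that of Mgp without replicate 3 in the paired fit (0.096, limma). The count of all genes called was 5 as reported, 18 with the replicate block, 3 after quantile normalisation and between 0 and 2 with 1 array left out. With the block it was 40 without replicate 1, 3 without replicate 2, 45 without replicate 3, and 22 without genes of identical replicate 1 values, a setting chosen after seeing the data. Members at an unadjusted p under 0.05 numbered 0 as reported, 3 with the block, 1 after median centring and 1 with a trend (Mgp in both), between 0 and 3 with 1 array left out, and with the block 2, 1 and 7 without replicates 1, 2 and 3 and 3 without genes of identical values. Non-overlapping members numbered 1 without the dimmest 25% of genes, which leaves out Slc34a2. With any fold above 1 counted, 11 members kept 1 sign in all pairs, against 0 at 1.2-fold. The called genes of the receptor list numbered 1 as reported, 0 to 1 with 1 array left out, and with the block 2, 0 and 2 without replicates 1, 2 and 3, and 2 without genes of identical values; the bone list stayed at 0. The median difference of the members stayed between -0.039 and 0.065. Single members kept their direction in 455 values over all alternatives and turned in 62, which belonged to 19 members within 0.09 of 0 as reported. After quantile normalisation the turned differences were Slc34a1 -0.0089, Thbd -0.033, Tph2 -0.019. After median centring the turned differences were Slc34a1 -0.0051, Thbd -0.0072. In the paired fit without replicate 1 the turned differences were Alpl 0.040, Nfatc1 0.033, Slc34a1 -0.0052, Pth1r 0.047, Slc37a2 -0.0011, Ninj1 0.034. In the paired fit without replicate 2 the turned differences were Slc34a1 -0.041, Slc34a3 -0.014, Cldn12 -0.032, Abcb1a 0.0084, Thbd -0.039, Tph2 -0.069. In the paired fit without replicate 3 the turned differences were Sost 0.033, Nfatc1 0.014, Slc20a1 0.072, Abcb1a 0.012, Cyp3a11 0.030, Camp 0.073, Th 0.081. With 1 array left out, the lowest and highest differences of such members were Alpl -0.16 and 0.12, Phex -0.066 and 0.11, Sost -0.13 and 0.071, Nfatc1 -0.044 and 0.072, Slc34a1 -0.053 and 0.065, Slc34a3 -0.027 and 0.093, Slc20a1 -0.15 and 0.022. They were Pth1r -0.15 and 0.049, Cldn12 -0.11 and 0.18, Abcb1a -0.076 and 0.056, Cyp3a11 -0.12 and 0.040, Slc37a2 -0.091 and 0.17, Camp -0.10 and 0.11, Trem1 -0.017 and 0.18. Last, they were Thbd -0.062 and 0.070, Ninj1 -0.20 and 0.076, Fbp1 -0.097 and 0.034, Th -0.12 and 0.022, Tph2 -0.034 and 0.097. The cause was not tested.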
